A study of Mus musculus and Homo sapiens with 9 samples.

Results

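The genes described are those of the pre-B cell receptor and its assembly: IGLL1, VPREB1, VPREB3, CD79A, CD79B and MZB1. They were selected on their symbol, 6 of 56105 annotated genes in the count table of J.gamma1 cells, and in mouse case 6 of 42462 in that of mouse T cells. The choice was made with the results of the J.gamma1 comparison in view, so that their values in it are given as a description, without a p-value. J.gamma1 is a Jurkat derivative that lacks PLCG1, a human T-ALL (T cell acute lymphoblastic leukemia) line. It carried either a control hairpin (shNC, 2 libraries, called sh-NC here) or a hairpin against IRF2BP2 (shIRF2BP2, 2 libraries, called sh-IRF2BP2). All were made in 1 cell line with hairpins in the pLKO.1 vector, and which of the study's hairpins was sequenced is not named. The mouse libraries came from CD3+ T cells sorted magnetically from spleen, 2 labelled Irf2bp2 KO and 3 labelled Wild type control. In the study's methods the knockout mice are Vav-iCre+/-;Irf2bp2 fl/fl and the controls Vav-iCre-/-;Irf2bp2 fl/fl, so that both carry the floxed alleles. Vav-iCre deletes them in the whole hematopoietic lineage, B cells and erythroid cells included, and neither the age of the sequenced mice, as distinct from those taken for flow cytometry, nor the number of animals behind a library is stated.

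In pre-B cells, before an immunoglobulin light chain gene is rearranged, the heavy chain pairs with a surrogate light chain made of the λ5 protein (IGLL1) and VPREB1. CD79A and CD79B, the Igα and Igβ chains, carry the signal of this receptor and later of the mature B cell receptor. VPREB3 binds the heavy chain inside the cell, and MZB1 is an endoplasmic reticulum protein that assists the chaperone HSP90B1 in the assembly of antibodies. In developing T cells the pre-T receptor, with PTCRA in the place of a surrogate light chain, has the corresponding role. Mature T cells are not known for expression of the surrogate light chain.

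Levels are CPM, counts relative to a library size scaled by TMM, and fold changes were fitted by edgeR over all genes of a table. Total counts lay between 26648204 and 31120236 in J.gamma1 cells and between 16668577 and 37177523 in mouse cells, with control replicate 3 the shallowest. IRF2BP2, the targeted gene, had 204.5 and 198.7 CPM in sh-NC and 78.96 and 93.83 in sh-IRF2BP2 cells. Its log2 fold change was -1.22 ± 0.13 (SE, n = 2 and 2), a 2.33-fold fall. In the mouse, the counts of Irf2bp2 were 4145, 4594 and 1915 in the controls and 0 in both knockouts. With the 3 counts that a count of 0 allows in each library, it was at least 1471-fold lower. Cd3e, a chain of the T cell receptor complex, had 338 to 446 CPM in the controls and 280 to 284 CPM in the knockouts. Whether the libraries of a group came from separate cultures or animals is not stated, so p-values measure the spread between these libraries, which may be technical.

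In J.gamma1 cells, IGLL1, CD79A and MZB1 were lower after IRF2BP2 knockdown, CD79B was near its control level and VPREB3 was listed at 0. IGLL1 had 479 and 651 CPM in sh-NC and 83.4 and 92.1 CPM in sh-IRF2BP2 cells. Both knockdown libraries thus lay far under both control libraries, which differed from each other more than the knockdown libraries did. The fitted log2 fold change was -2.69 ± 0.18 (SE, n = 2 and 2), or 6.44-fold lower. IGLL1 (ENSG00000128322, chr22:23573125-23580302, hg38, minus strand) shares sequence with IGLL5 and the immunoglobulin λ constant genes IGLC1, IGLC2, IGLC3 and IGLC7. All 5 were listed at 0 in every J.gamma1 library. An antisense long noncoding gene that overlaps IGLL1 had at most 5 counts in any library.

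CD79A (ENSG00000105369, chr19:41877279-41881372, plus strand) had 45.6 and 60.5 CPM in sh-NC and 11.2 and 14.0 CPM in sh-IRF2BP2 cells. The groups did not overlap, and sh-NC replicate 2 was the highest library, as for IGLL1. The log2 fold change was -2.07 ± 0.19 (SE, n = 2 and 2), or 4.2-fold lower. MZB1 (ENSG00000170476, chr5:139387467-139390081, minus strand) had 77.9 and 88.5 CPM in sh-NC and 32.0 and 41.2 CPM in sh-IRF2BP2 cells. This was the smallest of the 3 shifts, with both knockdown libraries again under both controls. Its log2 fold change was -1.18 ± 0.16, or 2.27-fold lower.

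The partner chains behaved differently. CD79B (ENSG00000007312, chr17:63928738-63932336, minus strand) had 4.29 and 4.42 CPM in sh-NC and 4.22 and 3.83 CPM in sh-IRF2BP2 cells. Its fitted log2 fold change was -0.11 ± 0.26 with a 95% interval from -0.71 to 0.49, so that the 2 chains of the Igα/Igβ pair were apart in size of change. CD79B overlaps another annotated protein-coding gene on the same strand, which had no row among the deposited counts. VPREB1 (ENSG00000169575, chr22:22244780-22245515, plus strand) had 17 and 27 counts in sh-NC and 3 and 7 counts in sh-IRF2BP2 cells, or 0.657, 0.870, 0.103 and 0.237 CPM. It passed the filter on low counts only through the sh-NC libraries, and its log2 fold change was -2.14 ± 0.66. VPREB3 (ENSG00000128218, chr22:23752743-23754425, minus strand) had 0 counts in all 4 libraries, which allows up to 0.116 CPM in the shallowest.

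Of the 6 genes, 5 were tested, of which 3 were called lower and 0 higher. A gene was called where its adjusted p was under 0.05 and its fold change, on the log2 scale, reached 0.5 in either direction. Over all 15819 genes tested, 5.01% were called lower and 5.46% higher. All 5 tested genes had both knockdown libraries under both controls, beside 28.7% of all genes in this direction and 29.6% in the other. The median log2 fold change was -2.07 over the 5 genes and 0.007 over all genes. These counts describe genes chosen with this comparison in view, and nothing is read from them. Across the alternatives tried, and as a description, the log2 fold changes lay between -2.90 and -2.45 for IGLL1, -2.26 and -1.85 for CD79A and -1.38 and -1.04 for MZB1.

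**Figure D1:**
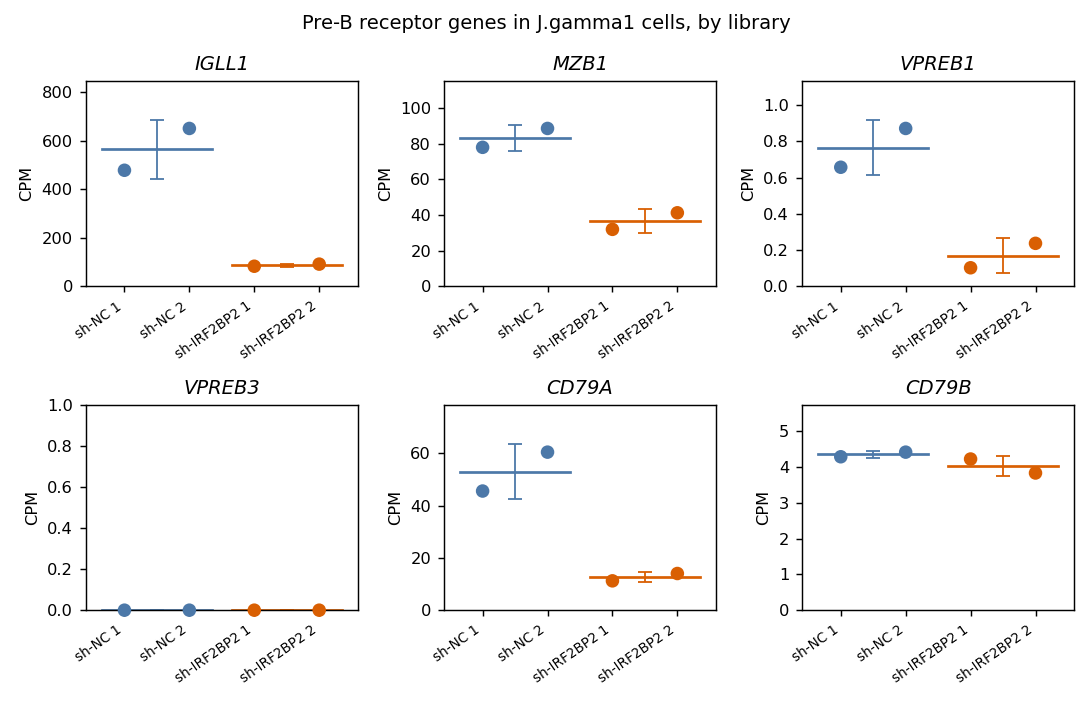
CPM (vertical axis, linear, from 0) of each pre-B receptor gene in each J.gamma1 library (horizontal axis). Points are single libraries, sh-NC in blue and sh-IRF2BP2 in orange; lines are group means and bars 1 SD (n = 2). IGLL1, MZB1, VPREB1 and CD79A are each lower in both knockdown libraries, CD79B lies between 3.83 and 4.42 CPM in all 4 libraries, and VPREB3 is at 0.

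Levels between genes were compared as CPM per kilobase of annotated exon. On this scale IGLL1 had 629 ± 136 (SD, n = 2) in sh-NC cells, rank 33 of the 15819 genes tested. It fell to 97.7 ± 6.86 in sh-IRF2BP2 cells, rank 273, and remained the highest of the pre-B receptor genes. CD79A, at 39.5 ± 7.83, and MZB1, at 36.4 ± 3.27, followed in sh-NC cells with overlapping ranges of 33.9 to 45.0 and 34.1 to 38.7. In sh-IRF2BP2 cells MZB1, at 16.02 ± 2.87, stood above CD79A, at 9.40 ± 1.48, without overlap. CD79B was at 2.05 in sh-NC and 1.90 in sh-IRF2BP2 cells and VPREB1 at 1.17 and 0.262. The level of VPREB1 per kilobase, the partner of λ5 in the surrogate light chain, was thus under that of IGLL1 in every library by a wide margin. Measured by the longest transcript, CD79B was at 3.47 and 3.21, and the order of the genes did not change.

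Because the falls differed in size, the proportions between the genes shifted. There were 10.5 and 10.8 IGLL1 counts for each CD79A count in control cells, against 7.42 and 6.56 after knockdown. For each MZB1 count there were 6.15 and 7.36 IGLL1 counts in sh-NC and 2.61 and 2.23 in sh-IRF2BP2 libraries. The counts of CD79A for each CD79B count were 10.6 and 13.7 in sh-NC and 2.66 and 3.66 in sh-IRF2BP2 libraries. The share of IGLL1 among these counts and the excess of Igα over Igβ counts were thus lower in both knockdown libraries, a description of ratios picked after their values were seen and not tested.

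The promoter windows of these genes, from 250 bases before to 50 bases after the start, are shown for the 3 lower genes and mouse Igll1, since they differ in the words they hold. The human windows, from 5 of the 6 genes, were read from hg38 at the start of the canonical GENCODE transcript, and the mouse windows, from 4 of the 6 genes, came from RefSeq (GRCm38.p6). The 4 words searched on both strands were CCCNNGGG, bound by EBF1, CANNTG, bound by E proteins, TGTGGT, bound by RUNX factors, and CGGAA, bound by ETS factors. In the sequences, capitals mark the EBF1, RUNX and ETS words, and the frequent E protein word stays in lower case. Each is written 5′ to 3′ on the strand of its gene:
IGLL1 (chr22:23580241-23580540, minus strand): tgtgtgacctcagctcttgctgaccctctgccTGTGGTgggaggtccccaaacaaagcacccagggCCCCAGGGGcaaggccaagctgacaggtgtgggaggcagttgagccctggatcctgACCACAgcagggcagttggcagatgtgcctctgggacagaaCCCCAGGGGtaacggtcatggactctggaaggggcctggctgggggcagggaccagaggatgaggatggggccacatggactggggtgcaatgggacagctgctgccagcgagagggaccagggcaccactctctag
CD79A (chr19:41877029-41877328, plus strand): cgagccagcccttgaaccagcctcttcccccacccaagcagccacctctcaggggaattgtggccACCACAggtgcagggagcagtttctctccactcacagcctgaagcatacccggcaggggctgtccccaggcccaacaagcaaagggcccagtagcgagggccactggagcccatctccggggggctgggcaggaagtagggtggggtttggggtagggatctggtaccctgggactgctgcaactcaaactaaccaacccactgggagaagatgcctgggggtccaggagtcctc
MZB1 (chr5:139389864-139390163, minus strand): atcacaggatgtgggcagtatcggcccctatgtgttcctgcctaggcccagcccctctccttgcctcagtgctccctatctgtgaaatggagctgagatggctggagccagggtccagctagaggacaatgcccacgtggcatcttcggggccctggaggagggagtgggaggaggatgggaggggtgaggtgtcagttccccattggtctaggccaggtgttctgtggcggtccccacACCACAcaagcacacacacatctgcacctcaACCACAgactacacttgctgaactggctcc
Igll1 (mouse, chr16:16863936-16864235, minus strand): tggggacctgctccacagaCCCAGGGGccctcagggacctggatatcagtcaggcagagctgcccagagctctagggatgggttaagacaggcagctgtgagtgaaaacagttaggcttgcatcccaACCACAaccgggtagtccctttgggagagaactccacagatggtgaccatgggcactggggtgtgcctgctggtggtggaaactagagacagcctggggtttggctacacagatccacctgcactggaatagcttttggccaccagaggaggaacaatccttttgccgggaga

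The IGLL1 window held the EBF1 word 4 times, as 2 overlapping pairs that begin at -184 and -87 from the start, and the RUNX word at -218 and -128. The MZB1 window held no EBF1 word and the RUNX word at -11 and 21. The CD79A window held no EBF1 word and 1 RUNX word at -185, which overlaps an E protein word. VPREB1, with 1 EBF1 word at -29, was the sole human window of the 5 with an ETS word, and VPREB3 held 2 RUNX words. Thus the RUNX word was in 4 of 5 human windows, the EBF1 word in 2, the E protein word in 5 and the ETS word in 1. Over the 20033 windows of human protein-coding genes, 10.7% held the RUNX word, 21.9% the EBF1 word, 63.8% the E protein word and 42.7% the ETS word. Of the 4 mouse windows, the RUNX word was in those of Igll1 and Vpreb3 and the EBF1 word in that of Igll1, beside 16.8% and 13.7% of the 32851 mouse windows. A match of letters is a description of the window and does not show that a factor binds there. The lack of a match does not show that a site is absent, since 1 fixed word per factor was searched. For ETS factors, GGAA after a base other than C was not counted, so the ETS shares hold for CGGAA only.

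**Figure D2:**
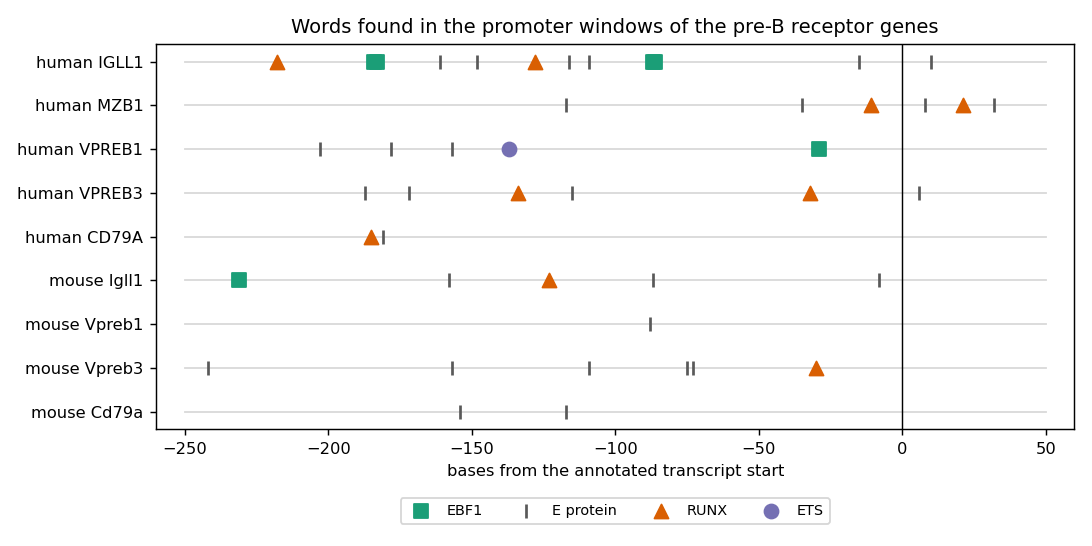
Position of the 4 searched words in the promoter windows of 5 human and 4 mouse genes. The horizontal axis is the distance in bases from the annotated transcript start; squares are EBF1 words, bars E protein words, triangles RUNX words and the circle an ETS word. Human IGLL1 is the window with both EBF1 and RUNX words among the human genes.

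The genes whose profile over the 4 J.gamma1 libraries was nearest to that of IGLL1 were sought among 10916 genes of at least 5 CPM on average. The measure was the root mean square difference of log2 CPM values centred on each gene's mean. The nearest were CD1A, a lipid-presenting molecule of cortical thymocytes, at 0.19, CEBPE at 0.22, MAL at 0.23, MME at 0.26 and ALDH1A2 at 0.28. CD1A had 54.7 and 52.5 CPM in sh-NC and 8.17 and 8.04 CPM in sh-IRF2BP2 cells. MME, which encodes the early lymphoid antigen CD10, had 9.77 and 8.38 CPM in sh-NC and 1.34 and 1.76 CPM in sh-IRF2BP2 cells. With 2 groups of 2 libraries, nearness mostly reflects a fall of like size.

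Among the lists related to the pre-B receptor, 5 of 9 early lymphoid genes were called lower in J.gamma1 cells. Signaling genes and B lineage transcription factors were called in both directions. None of the 9 early lymphoid genes was called higher, beside 5.01% of all genes called lower and 5.46% called higher. The counts of the following lists stand against these shares too. For the 9 early lymphoid genes, a median was taken as well. Their median log2 fold change was -1.58, the value of CD34. CD34 and FLT3 passed the filter on low counts only through the sh-NC libraries, and neither was called. Their lowest levels in sh-IRF2BP2 cells were 0.2035 and 0.2061 CPM. RAG1 had 60.9 and 30.2 CPM in sh-NC and 6.87 and 6.95 CPM in sh-IRF2BP2 cells. RAG1 and RAG2, the recombinase that rearranges antigen receptor genes, changed by -2.72 ± 0.31 and -2.01 ± 0.21 (adjusted p = 0.0029 and 0.0020), with -2.13 for RAG1 without sh-NC replicate 1. DNTT, which adds nucleotides at the joints, changed by -2.04 ± 0.33 (adjusted p = 0.0094), and MME by -2.54 ± 0.28 (adjusted p = 0.0024). IL7R was the fifth, at -1.06 ± 0.23 (adjusted p = 0.028), and was named after its value was seen. This list and the following ones were chosen with earlier results of these data known. The adjusted p-values of their genes come from the fit over all genes and serve as a description.

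Of 16 signaling genes downstream of the receptor, 12 were tested, 1 was called lower and 2 higher. The adaptor BLNK and the kinases BTK and LYN, which transmit the signal in B cells, did not pass the filter, with at most 0.097 CPM of BLNK in any library. SYK, the kinase recruited by CD79A and CD79B, had 148 and 175 CPM in sh-NC and 204 and 243 CPM in sh-IRF2BP2 cells (adjusted p = 0.076). PRKCB, protein kinase C beta, rose by 0.71 ± 0.12 (adjusted p = 0.012), a call lost without sh-IRF2BP2 replicate 2 (0.67, adjusted p = 0.053). DAPP1, an adaptor of phosphoinositide signaling, changed by -1.55 ± 0.41 (adjusted p = 0.049), a call lost without sh-NC replicate 2, sh-IRF2BP2 replicate 1 or sh-IRF2BP2 replicate 2 (adjusted p = 0.16, 0.16 and 0.15). PTPN6, a phosphatase that dampens receptor signals, changed by 0.59 ± 0.12 (adjusted p = 0.022), and by 0.65 and 0.50 without sh-IRF2BP2 replicate 1 or 2 (adjusted p = 0.065 and 0.14). SYK, BLNK, BTK and LYN were named after their values were seen.

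Of 21 B lineage transcription factors, 18 were tested, 3 were called lower and 5 higher. ID2 and ID3, which inhibit E proteins, rose by 2.102 ± 0.31 and 1.62 ± 0.15 (adjusted p = 0.0068 and 0.0016). ID3 went from 30.6 and 34.6 CPM to 112 and 88.2 CPM, and ID2 from 1.93 and 2.58 CPM to 11.9 and 7.57 CPM. BACH2, a repressor of plasma cell differentiation, rose by 1.27 ± 0.15 (adjusted p = 0.0030). IRF8 fell by 1.38 on the log2 scale (SE 0.32, adjusted p = 0.033), a call lost without sh-IRF2BP2 replicate 1 or 2 (adjusted p = 0.13 and 0.065). EBF1, which together with E proteins activates the surrogate light chain genes in B cell precursors, had 3.44, 3.25, 3.50 and 3.12 CPM in the 4 libraries (log2 fold change -0.014 ± 0.28, adjusted p = 0.98). PAX5, the B lineage commitment factor, had 4, 0, 3 and 0 counts. TCF3, the E protein E2A, had a log2 fold change of 0.19 ± 0.13 (adjusted p = 0.39). TCF12, the E protein HEB, had 331 and 289 CPM in sh-NC and 203 and 204 CPM in sh-IRF2BP2 cells and fell by 0.61 on the log2 scale (adjusted p = 0.023). Its call was lost without sh-IRF2BP2 replicate 1 or 2 (adjusted p = 0.12 and 0.11). TCF4, the other E protein of the list, had a log2 fold change of 0.24 ± 0.20 (adjusted p = 0.47). EBF1, PAX5 and the E proteins were named after their values were seen.

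Of 16 endoplasmic reticulum chaperones, 2 were called lower and 0 higher. HSP90B1, the chaperone MZB1 assists, had a log2 fold change of 0.33 ± 0.13 (adjusted p = 0.13). CALR, calreticulin, fell by 0.84 on the log2 scale (adjusted p = 0.012) and SDF2L1 fell by 1.09 (adjusted p = 0.029). Both calls were lost without sh-IRF2BP2 replicate 2 (adjusted p = 0.092 and 0.089). In the pre-T receptor and CD3 list, with 11 genes tested, 2 were called lower and 2 higher. PTCRA, the T lineage counterpart of the surrogate light chain, had 1.24 and 2.67 CPM in sh-NC and 0.275 and 0.407 CPM in sh-IRF2BP2 cells. It passed the filter on low counts only through the sh-NC libraries, so that its call is a description. Its log2 fold change was -2.51 ± 0.56, and the call was lost without sh-NC replicate 2 (-1.84) or sh-IRF2BP2 replicate 1 (-2.285). CD3D fell by 0.79 (adjusted p = 0.0086, and 0.060 without sh-IRF2BP2 replicate 1), and LAT rose by 0.79 ± 0.12 (adjusted p = 0.0084). LCP2 rose by 0.71 ± 0.13 (adjusted p = 0.016, and 0.11 without sh-IRF2BP2 replicate 1).

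Most markers of B cells were at or near 0 in J.gamma1 cells, and the highest was CD72, named after its values were seen. CD72, an inhibitory receptor of B cells, had 5.52 and 7.90 CPM in sh-NC and 1.79 and 4.75 CPM in sh-IRF2BP2 cells (log2 fold change -1.04 ± 0.44, adjusted p = 0.17). Of 13 markers, 6 had 0 counts in all 4 libraries (MS4A1, FCER2, FCRLA, FCRL1, IGHD and IGKC). IGHM, the μ heavy chain gene, had 2 counts in total over the 4 libraries and was named after its value was seen. The summed level of the list was 7.11 to 10.2 CPM in sh-NC and 3.67 to 7.60 CPM in sh-IRF2BP2 cells, against 607 to 805 and 131 to 152 CPM for the pre-B receptor genes. Of the 3 markers tested, 0 were called. Of 9 plasma cell markers, 5 were tested, 0 were called lower and 1 higher. It was PRDM1, at 1.38 ± 0.29 (adjusted p = 0.024), a call lost without sh-IRF2BP2 replicate 1 or 2 (adjusted p = 0.062 and 0.086). With every gene kept that had 1 or more counts in some library, the calls of TCF12, PRDM1, LCP2, IRF8, PTCRA, PTPN6, DAPP1 and SDF2L1 were lost as well (adjusted p from 0.051 to 0.083). That of DAPP1 was also lost with DESeq2 (adjusted p = 0.079) and with all rows of the table (adjusted p = 0.053).

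**Figure D3:**
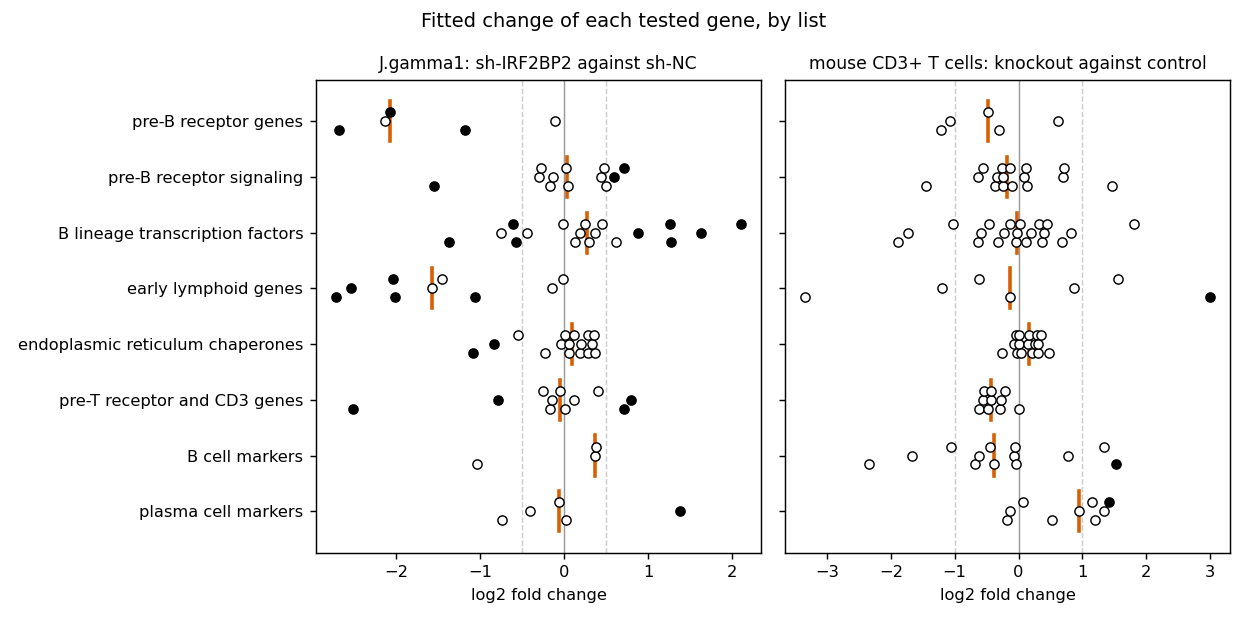
Fitted log2 fold change (horizontal axis) of each tested gene in the pre-B receptor genes and 7 related lists, for J.gamma1 cells on the left and mouse T cells on the right. Filled points were called, open points were not, orange bars are list medians and dashed lines the fold thresholds of 0.5 and 1. In J.gamma1 cells the pre-B receptor genes and the early lymphoid genes have medians of -2.07 and -1.58. Among the genes drawn there, VPREB1, CD34, FLT3 and PTCRA passed the filter on low counts only through the sh-NC libraries. In mouse cells no pre-B receptor gene was called.

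In mouse splenic T cells none of the pre-B receptor genes was called between knockout and control, and the surrogate light chain genes were at or near 0. Igll1 (ENSMUSG00000075370, chr16:16860671-16863985, mm10, minus strand) had 0 counts in all 5 libraries, which allows up to 0.188 CPM in the shallowest. Vpreb2, a mouse relative of Vpreb1, also had 0 counts in every library. Vpreb1 (ENSMUSG00000059305, chr16:16868403-16870843, minus strand) had 13, 11 and 12 counts in the controls and 18 and 6 in the knockouts. It overlaps Top3b on the other strand, and the strand setting of the counting is unknown, so that these few counts cannot be told apart from reads of Top3b. Vpreb3 (ENSMUSG00000000903, chr10:75943057-75949657, plus strand) had 33, 52 and 0 counts in the controls and 31 and 18 in the knockouts. The groups overlapped for both, with log2 fold changes of -0.485 ± 0.76 (adjusted p = 0.82) and -0.30 ± 1.10 (adjusted p = 0.93).

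Cd79a (ENSMUSG00000003379, chr7:24897381-24902197, plus strand) had 32.8, 62.1 and 5.38 CPM in control replicates 1, 2 and 3 and 22.4 and 9.43 CPM in knockout replicates 1 and 2. The controls spanned both knockouts. The log2 fold change was -1.08 ± 0.88 (SE, n = 2 and 3, adjusted p = 0.63), with a 95% interval from -3.17 to 1.02. Cd79b (ENSMUSG00000040592, chr11:106311341-106314762, minus strand) had 34.2, 62.8 and 13.1 CPM in the controls and 22.7 and 9.04 CPM in the knockouts, the same order of libraries but for the lowest. Its log2 fold change was -1.22 ± 0.67 (adjusted p = 0.45), with a 95% interval from -2.81 to 0.38. Unlike in J.gamma1 cells, the 2 chains had similar levels, with 0.959, 0.988 and 0.412 Cd79a counts for each Cd79b count in the controls and 0.987 and 1.04 in the knockouts. Control replicate 3 stood apart, with 86 Cd79a against 209 Cd79b counts. Without it, the log2 fold changes of Cd79a and Cd79b were -1.58 and -1.62 (adjusted p = 0.14 for both). They were -0.28 and -0.57 without control replicate 2 (adjusted p = 0.91 and 0.70), -1.85 and -2.05 without knockout replicate 1 (0.82 and 0.59), and -0.61 and -0.72 without knockout replicate 2 (0.96 and 0.91).

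Mzb1 (ENSMUSG00000024353, chr18:35647267-35649367, minus strand) was the sole pre-B receptor gene with both knockouts above all controls. It had 14.5, 14.2 and 8.51 CPM in the controls and 22.7 and 15.5 CPM in the knockouts, and the margin between control replicate 1 and knockout replicate 2 was narrow. The log2 fold change was 0.62 ± 0.30 (adjusted p = 0.38), with a 95% interval from -0.088 to 1.32. Mzb1 shares part of its position with the gene model SPATA24 on the same strand, which had no row among the deposited counts. Over all 15350 genes tested, 0.111% were called lower and 2.47% higher, where the threshold on the log2 scale was 1, and groups did not overlap for 17.8% in the lower and 18.2% in the higher direction. Of the 5 pre-B receptor genes tested, 0 were called in either direction by edgeR and by DESeq2. Their median log2 fold change was -0.485, against -0.018 over all genes.

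**Figure D4:**
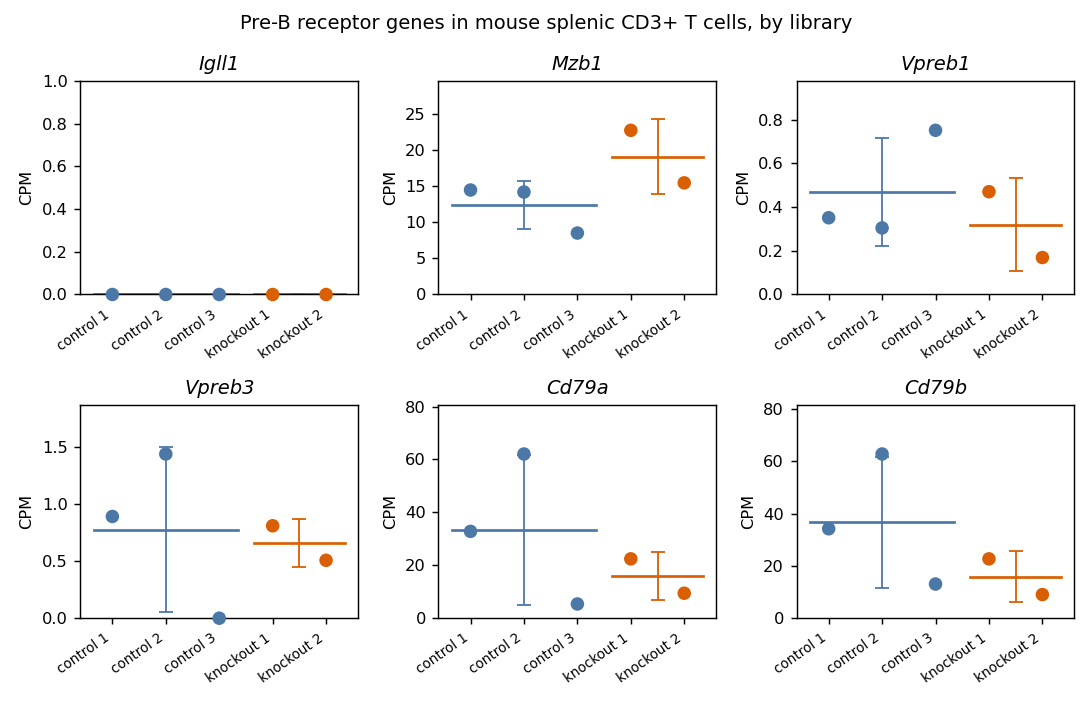
CPM (vertical axis, linear, from 0) of each pre-B receptor gene in each library of mouse splenic CD3+ T cells (horizontal axis). Points are single libraries, controls in blue and knockouts in orange; lines are group means and bars 1 SD (n = 3 and 2), cut at 0. For Cd79a and Cd79b, control replicate 2 is the highest of the 3 controls and control replicate 3 the lowest; Mzb1 is the one gene with both knockouts above all controls; Igll1 is at 0.

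Some markers of other cell types varied over the libraries in a like way, and others did not. Ms4a1, which encodes the B cell antigen CD20 and was named after its values were seen, had 21.6, 40.5 and 2.75 CPM in the controls and 17.3 and 3.66 CPM in the knockouts, the same order of libraries as Cd79a. The 10 B cell markers other than immunoglobulins summed to 157, 202 and 62.2 CPM in the controls and 129 and 52.5 CPM in the knockouts. Control replicate 3 and knockout replicate 2 were the lowest for this sum, as for Cd79a and Cd79b, and control replicate 2 was the highest. Single markers differed from it. Cr2 was highest in a knockout library, at 24.65 CPM. Cd72 had 40.22 ± 3.52 CPM (SD, n = 3) in the controls and 25.02 ± 3.316 CPM (n = 2) in the knockouts, without overlap. In such bulk libraries, fewer B cells and less RNA per cell cannot be told apart, and the part of B cells in the Cd79a and Cd79b values was not tested.

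Of 9 plasma cell markers, 6 were highest in knockout replicate 1, as Mzb1 was, and 3 (Sec11c, Tnfrsf13b and Tnfrsf17) in control replicate 1. Of 4 immunoglobulin genes, Ighm and Igkc were highest in knockout replicate 1, Iglc2 in control replicate 1 and Ighd in control replicate 2. Ighm, the μ heavy chain, had 1756, 1938 and 1200 CPM in the controls and 5511 and 3891 CPM in the knockouts. It rose by 1.53 ± 0.25 on the log2 scale (adjusted p = 0.030), and the call was lost without control replicate 1, knockout replicate 1 or knockout replicate 2 (adjusted p = 0.14, 0.22 and 0.12). Prdm1, the regulator of plasma cells, had 14.1, 8.80 and 9.82 CPM in the controls and 30.2 and 28.4 CPM in the knockouts (log2 fold change 1.42 ± 0.24, adjusted p = 0.032). Its call was lost without any 1 of control replicates 1 and 3 and knockout replicates 1 and 2 (adjusted p = 0.063, 0.057, 0.23 and 0.22). Over the 13 B cell markers 0 were called lower and 1 higher, with summed levels of 2130 to 3738 CPM in the controls and 6479 to 9243 CPM in the knockouts, mostly of Ighm and Igkc. Over the 9 plasma cell markers 0 were called lower and 1 higher, with summed levels of 535 to 1288 and 1242 to 1607 CPM. There were 0.00824, 0.00732 and 0.00709 Mzb1 counts for each Ighm count in the controls and 0.00413 and 0.00397 in the knockouts, so that the difference in Mzb1 was smaller than that in Ighm. The part of antibody-secreting cells in the Mzb1 values was not tested.

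**Figure D5:**
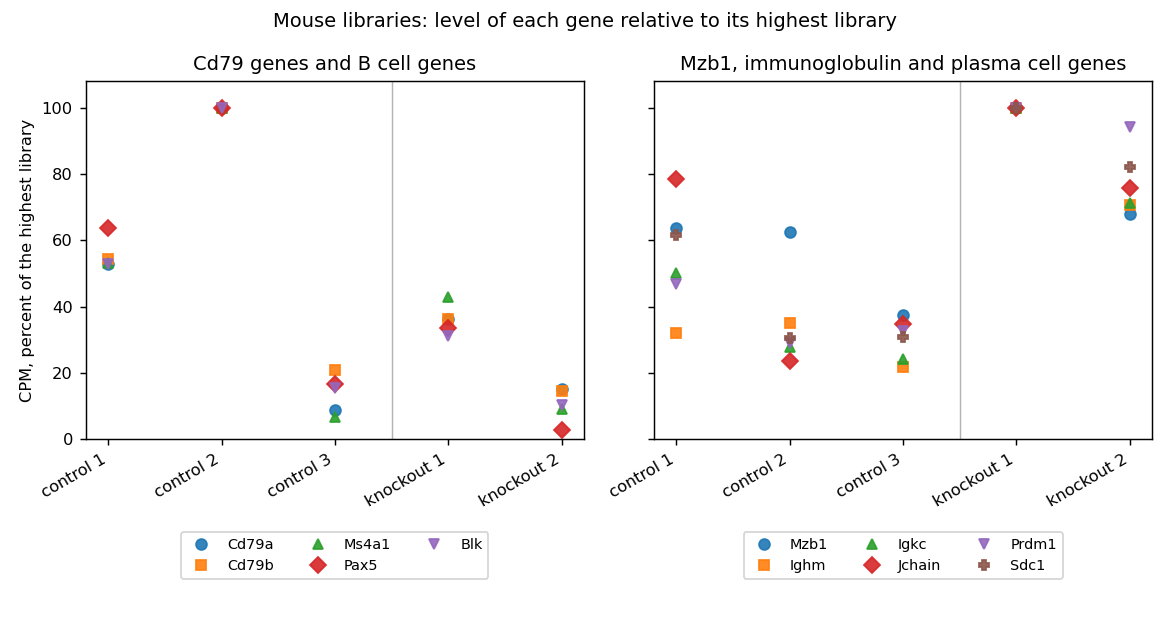
CPM of each gene as a percent of its highest library (vertical axis) in the 5 mouse libraries (horizontal axis), with markers for single genes that lie on top of each other at 100 percent. On the left, Cd79a and Cd79b stand beside Ms4a1, Pax5 and Blk, all highest in control replicate 2; on the right, Mzb1 stands beside Ighm, Igkc, Jchain, Prdm1 and Sdc1, all highest in knockout replicate 1. The genes beside Cd79a, Cd79b and Mzb1 were picked after their values were seen, and Sec11c, Tnfrsf13b, Tnfrsf17, Ighd and Iglc2, each highest in a control library, are not drawn. Nor are all B cell genes of the lists drawn on the left. Among those left out, Cr2 and Btk are each highest in a knockout library. Pik3ap1, Rasgrp3, Ikzf3, Bcl11a, Irf4 and Myb, also left out, have both knockouts above all controls. Of 16 signaling genes, 2 lie above and 2 under all controls in this way, and of 21 B lineage transcription factors 4 and 4. Over all genes tested the shares are 18.2% and 17.8%.

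The genes nearest in profile to Cd79a over the 5 mouse libraries, by the same measure and among 10322 genes, were Pirb at 0.17, Pla2g7 at 0.22, Fcgr3 at 0.25, C3 at 0.26 and Ly6d at 0.29. Pirb, an inhibitory receptor of B and myeloid cells, had 11.1, 23.0 and 2.06 CPM in the controls and 9.09 and 4.56 CPM in the knockouts. Control replicate 2 was again the highest library and control replicate 3 the lowest. Myeloid markers varied in a like way, with 157, 426 and 40.9 CPM summed over 10 markers in the controls and 153 and 94.4 CPM in the knockouts, and 0 of the 10 were called.

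Of the related mouse lists, few genes were called. Over 16 signaling genes, 21 B lineage transcription factors and 16 endoplasmic reticulum chaperones, 0 were called in either direction, with median log2 fold changes of -0.18, -0.028 and 0.16. Of the pre-T receptor and CD3 genes 10 were tested and 0 called. Their median was -0.43, and 8 had both knockouts under all controls, as did 17.8% of all genes tested. Of 7 early lymphoid genes tested, 0 were called lower and 1 higher, and the other two, Rag2 and Mme, had 0 counts in every library. It was Cd24a, with 42.7, 75.1 and 24.5 CPM in the controls and 337 and 426 CPM in the knockouts (log2 fold change 3.003 ± 0.42, adjusted p = 0.020). This call was lost without control replicate 1, knockout replicate 1 or knockout replicate 2 (adjusted p = 0.12, 0.074 and 0.12). Cd24a is also abundant on erythroid cells, and of 12 erythroid markers 8 were called higher in the same libraries. All 12 together summed to 397.5 to 1472 CPM in the controls and 3308 to 4526 CPM in the knockouts. Much of this came from Hba-a1 and Hbb-bs, which were not called (adjusted p = 0.15 and 0.14). Their means were 402 and 403.8 CPM in the controls and 1313 and 1475 CPM in the knockouts. The part of erythroid cells in the Cd24a value was not tested. Rhag and Slc4a1, membrane proteins of red cells, rose by 3.70 ± 0.48 and 3.68 ± 0.50 (adjusted p = 0.016 and 0.018), and both calls were lost without control replicate 1 (adjusted p = 0.099 and 0.11), knockout replicate 1 (0.075 and 0.065) or knockout replicate 2 (0.10 for both). Of the plasmacytoid dendritic cell markers, 4 of 6 were tested and 0 called, with summed levels of 174 to 248 CPM in the controls and 131 to 141 CPM in the knockouts. Iglc2, the tested λ constant gene, had a log2 fold change of 0.12 (adjusted p = 0.94).

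Set side by side, both systems held counts of CD79A, CD79B, MZB1 and VPREB1, with the limit given above for mouse Vpreb1. IGLL1 had counts in J.gamma1 cells only and VPREB3 in mouse cells only. In J.gamma1 cells IGLL1 was the most abundant of the 6 genes per kilobase, whereas in mouse T cells it was at 0. There, per kilobase, Cd79b had 25.7 ± 17.5 (SD, n = 3), Cd79a 22.9 ± 19.5 and Mzb1 10.2 ± 2.77 in the controls, with overlapping ranges for all 3. In the knockouts Mzb1 had 15.7 ± 4.24, Cd79b 11.1 ± 6.76 and Cd79a 10.9 ± 6.31, with overlapping ranges for all 3. Vpreb3 and Vpreb1 were lower, at 0.904 and 0.391 in the controls and 0.766 and 0.266 in the knockouts. The tables were normalised separately, so levels are compared within a table only.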

How the data were processed

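RNA-seq was measured in 4 J.gamma1 and 5 mouse libraries. The authors aligned 150-base paired reads with HISAT2 2.2.0 to hg38 or, per the submitters' processing notes, mm10, quantified genes with StringTie and deposited raw counts per gene. How coverage became counts, and whether strand was used, is not given in the sources used here. Rows of annotated genes, 98.0% and 99.8% of the counts, were kept and each table was fitted alone. After filterByExpr and TMM scaling, edgeR 4.0.16 (R 4.3.3) quasi-likelihood tests were run without covariates, with Benjamini-Hochberg adjustment over all genes tested and a prior count of 2 for log2 CPM. Genes were called at an adjusted p under 0.05 where the log2 fold change reached 0.5 (J.gamma1) or 1 (mouse) in either direction. The residual degrees of freedom were 2 and 3. The method was tested on simulated data, with the same spread for every gene and changes planted only in genes above a count limit. That test does not cover genes of low count or of differing spread. Floors cover counting error only.

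The genes and lists were chosen with earlier results of these data known. Named genes are the 6 genes, up to 4 called genes of largest change per list, list genes at 0, the 5 nearest profiles to IGLL1 and Cd79a, and the targeted gene; others are stated as chosen after their values were seen. Ratios between genes were also chosen so.

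Human promoter windows were read around the GENCODE canonical start in hg38, since the RefSeq table used here was of the mouse; mouse Mzb1 and Cd79b were not read. Some windows and marker genes that the rule names are not reported here. The settings varied were the test (DESeq2 1.42.0), the scaling (upper-quartile, RLE), other count filters and fold thresholds, counts divided by 2, all rows, a replicate block, each library left out, and the longest transcript as length.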

Additional observations from a re-analysis of the deposited data

Results flagged for a closer look

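MZB1 had a log2 fold change of -1.18 in J.gamma1 cells and Mzb1 one of 0.62 in mouse T cells, with all treated libraries under the controls in the first and above them in the second. For 4 of the list genes the libraries lay on opposite sides in the same manner. PTPN6 was at 0.59 and Ptpn6 at -0.64, ID3 at 1.62 and Id3 at -1.03, CD24 at -0.15 and Cd24a at 3.003, and LAT at 0.79 and Lat at -0.55. Groups did not overlap for 28.7% (lower) and 29.6% (higher) of all J.gamma1 genes tested, and for 17.8% and 18.2% of mouse genes. The share of all genes on opposite sides in the 2 tables was not computed, so nothing is read from the count. CD24 was not called in J.gamma1 cells (adjusted p = 0.83), nor Mzb1, Ptpn6, Id3 and Lat in the mouse (adjusted p = 0.38, 0.19, 0.21 and 0.32). None of these 5 differences was tested, and the 2 tables differ in species, cell type and means of lowering IRF2BP2.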

How the results depend on the processing

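Among the mouse pre-B receptor genes, 0 were called under any alternative. With 2 or 3 libraries a group, changes of VPREB1, Vpreb1 and Vpreb3 were not measurable with precision at these counts, and the wide intervals of Cd79a and Cd79b allow changes in either direction. Over all J.gamma1 genes, 793 lower and 864 higher calls became 396 and 319 with at least 1 count in any library and 318 and 262 at a fold threshold of 1. Leaving out single libraries gave 419 to 1143 lower and 418 to 1608 higher calls, the lowest without sh-IRF2BP2 replicate 1 and the highest without sh-NC replicate 1. Over all mouse genes, 17 lower and 379 higher calls became 71 and 755 with DESeq2, and 1 to 35 and 6 to 532 with single libraries left out, the lowest without control replicate 1 and the highest without control replicate 2. The replicate block gave 1174 lower and 1293 higher J.gamma1 calls, with VPREB1 added (-2.17), and 35 lower and 407 higher mouse calls. Same-numbered libraries had correlated deviations of 0.225 in J.gamma1 cells, and of 0.151 and -0.161 in the mouse, and with so few pairs, and numbers that the labels tie to nothing else, whether they pair the libraries was not established. Without control replicate 2, the log2 fold changes of Vpreb3, Pirb, Pla2g7 and Fcgr3 turned to 0.40, 0.026, 0.12 and 0.078, from ranges that began at -0.82, -1.44, -1.32 and -1.38. That of Vpreb1 turned to 0.028 without knockout replicate 2 (lowest -1.43). The causes were not tested.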
